A study of Mus musculus with 2 samples.

Results

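Transcript levels of 10 immediate early genes outside the AP-1 family were examined in mouse MC3T3-E1 cells, a clonal pre-osteoblast line from newborn calvaria, cultured with formaldehyde at 100 µM (FA_100) or at 300 µM (FA_300). The genes are Egr1, Egr2, Ier2, Ier3, Ier5, Klf2, Klf4, Klf6, Klf10 and Nr4a1. They were chosen by name as serum and stress response genes, with earlier results of these data known. They were looked up by NCBI gene number. Both tables list 17215 genes, including all 10. A comparison was made where the mean of both libraries reached 1 FPKM, which left 10123 genes and again all 10. FPKM counts fragments per length of transcript and per mapped fragments of the library, so levels can be set side by side between genes. Both groups share the line, the serum-containing medium and the aldehyde, and differ in its dose. There was 1 library per dose, the length of exposure is not stated, and untreated cells were not analysed here, so there is no p-value and no replicate check, and a difference between the doses is a difference between a pair of libraries. Such bulk values cannot tell fewer expressing cells apart from less RNA per cell.

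Immediate early genes are transcribed within minutes of a stimulus from factors already present in the cell, before any new protein is made. Growth factors in serum and cellular stress reach them through mitogen-activated protein kinases, which act on SRF with its ternary complex partners, on CREB and on MEF2. Most of the genes studied here encode transcription factors that pass the signal on. EGR proteins bind GC-rich DNA through zinc fingers. KLF proteins, relatives of SP1, bind GC boxes and CACCC boxes, and NR4A1 (Nur77) is an orphan nuclear receptor. The IER proteins are not DNA-binding factors of a known class. Their mRNAs are short-lived.

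The 10 genes did not move together. Ier3, Ier2 and Egr2 were higher at 300 µM by 2-fold or more, whereas Klf6, Klf4 and Ier5 were lower by 2-fold or more. Nr4a1, Klf10, Egr1 and Klf2 lay between, with values above those at 100 µM. The level at 300 µM was divided by that at 100 µM after 1 FPKM had been added to both, and the log2 of this quotient is called the log2 ratio. Over all genes compared, 6.09% passed 2-fold upward and 29.9% downward. Thus 3 of 10 stood beyond 2-fold upward, against 6.09% of all genes, and 3 of 10 downward, near the background of 29.9%. The median log2 ratio of the 10 genes was 0.60, and that of all genes compared was -0.30.

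**Figure D1:**
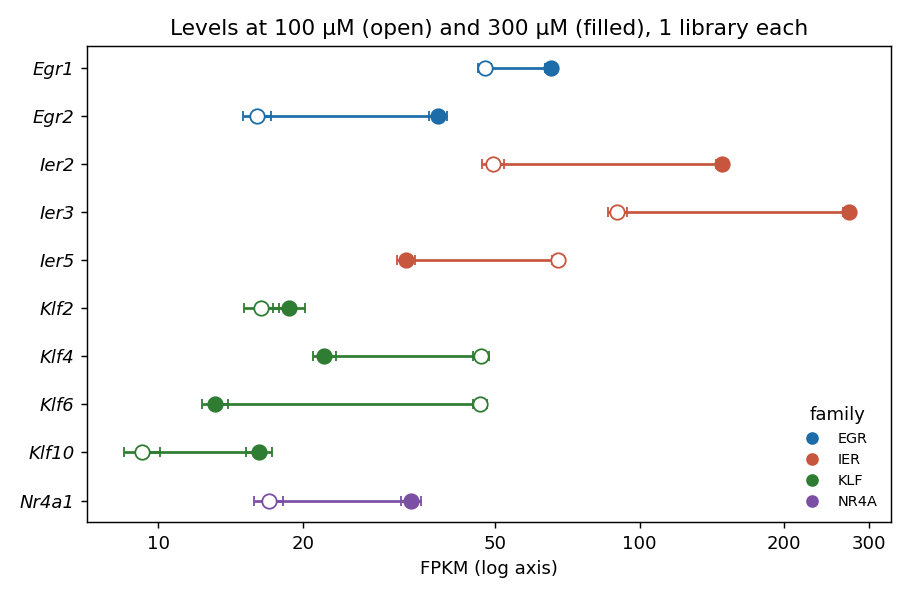
FPKM of each gene at 100 µM (open circles) and at 300 µM (filled circles) on a log axis, coloured by family, with 1 library per dose. Bars are exact 95% Poisson intervals of the estimated reads and cover counting error only. The intervals of the 2 doses overlap for Klf2 and for no other gene, and Ier5, Klf4 and Klf6 are the genes whose filled circle lies to the left.

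Depth was not given and was estimated roughly from the steps in low FPKM values, as 18500000 mapped fragments (100 µM) and 19400000 (300 µM). At these depths the least covered of the 10, Klf10, rested on about 521 reads at 100 µM, and Ier3 at 300 µM on about 5970. The counting intervals below rest on these estimates, and variation between cultures was not measured. Of 8 osteoblast markers 6 reached 1 FPKM at 100 µM and 7 at 300 µM, with Col1a1 at 2065 and 1714 FPKM, Col1a2 at 2336 and 2161 FPKM and Spp1 at 253 and 313 FPKM. The lineage factor genes Runx2 and Sp7 stood at 7.99 and 3.60 FPKM and at 7.21 and 9.47 FPKM, and Ibsp at 1.83 and 1.77 FPKM, while Alpl was near 1 FPKM in both and Bglap was listed at 0 at 100 µM. Among 6 endothelial markers, relevant because Klf2 is best known from endothelium, Flt1 alone reached 1 FPKM (7.70 and 7.91 FPKM). Kdr was listed at 0 in both libraries, and the sum of the 6 was 7.86 and 8.01 FPKM. The chondrocyte genes Col2a1 (322 and 350 FPKM) and Sox9 (61.4 and 9.78 FPKM) were also present, with Col10a1 at 0.08 FPKM and Acan listed at 0 in both. The keratinocyte genes Krt14 (8.41 and 6.99 FPKM) and Trp63 (1.17 and 2 FPKM) reached 1 FPKM in both libraries. So did the muscle gene Acta1 (3.29 and 10.1 FPKM), and the osteocyte gene Dmp1 (2.24 and 0.79 FPKM) at 100 µM alone. No adipocyte marker found reached 1 FPKM. The 6 macrophage and blood cell markers, of which 2 and 1 reached 1 FPKM, summed to 16.2 and 27.7 FPKM, of which Lyz2 gave 13.2 and 26.5 FPKM, Cd68 2.57 and 0.77 FPKM and Csf1r 0.44 and 0.40 FPKM. Ptprc stood at 0.03 and 0.05 FPKM, and Adgre1 and Hbb-bs were listed at 0 in both. The part of any such cells in the differences was not tested.

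Promoter sequence from RefSeq, build GRCm38.p6, was used for 7 of the 10 genes, namely Egr2, Ier3, Ier5, Klf2, Klf4, Klf6 and Nr4a1. Egr1, Ier2 and Klf10 are outside the counts that follow. In the 250 bases before the start, both strands were searched for the EGR recognition sequence GCGNGGGCG, the GC box core GGGCGG, the cAMP response element TGACGTCA, the ETS core CCGGAA, the TATA box TATAAA and the CArG box bound by SRF. A MEF2 site, TGCGTCA and GGAATTTCC were added after the windows had been read. All 7 windows held GGGCGG, which 51.8% of 13642 gene promoters hold. GCGNGGGCG lay in 3 of 7 (Klf2, Klf4 and Nr4a1), against 7.66% of promoters. The GC content of these windows was 71.2%, 74% and 74.4%, and that of Egr2, without a match, 71.2%. Promoters of like GC content were not compared, so the part of GC content was not tested. The CArG box (1.27% of promoters), TGACGTCA (2.38%) and TATAAA (8.70%) lay in 0 of 7. CCGGAA (18.4% of promoters) lay in Nr4a1 alone. The MEF2 site, held by 1.88% of promoters, lay in Klf2 alone, TGCGTCA (2.56%) in Nr4a1 alone, where it occurred 4 times, and GGAATTTCC (0.293%), of the type that NF-kappaB binds, in Ier3 alone. Matches of GCGNGGGCG overlap GGGCGG in all 3 genes. They begin 199 bases before the start in Klf2, 211 and 194 bases before it in Klf4 and 60 bases before it in Nr4a1. The MEF2 site of Klf2 begins at 118 bases, the GGAATTTCC of Ier3 at 139 bases, and the TGCGTCA copies of Nr4a1 at 235, 215, 71 and 42 bases before the start. These are matches of letters and not shown binding sites, and no match says only that the letters are not in this window. The 4 windows that hold a match other than the GC box are printed below in the direction of transcription, the last base lying just before the start that RefSeq gives, with those matches in capitals: Ier3 (chr17:35821463-35821712, plus strand), which had the highest ratio, Nr4a1 (chr15:101266596-101266845, plus strand), Klf2 (chr8:72318812-72319061, plus strand) and Klf4 (chr4:55532476-55532725, minus strand). In GENCODE M21 the windows of Ier3 and Klf2 end inside the gene, whose annotated start lies further upstream, and the whole window of Nr4a1 lies inside the gene, before a start downstream of the outermost one.
Ier3: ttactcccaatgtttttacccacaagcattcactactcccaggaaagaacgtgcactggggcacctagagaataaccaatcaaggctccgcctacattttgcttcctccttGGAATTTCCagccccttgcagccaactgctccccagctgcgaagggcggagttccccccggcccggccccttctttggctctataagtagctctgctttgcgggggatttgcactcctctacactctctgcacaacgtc
Nr4a1: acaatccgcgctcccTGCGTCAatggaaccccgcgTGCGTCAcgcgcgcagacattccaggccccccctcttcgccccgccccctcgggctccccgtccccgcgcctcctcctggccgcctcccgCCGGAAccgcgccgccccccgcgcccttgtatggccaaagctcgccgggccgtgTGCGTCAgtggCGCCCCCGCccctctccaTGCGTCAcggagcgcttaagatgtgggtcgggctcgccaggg
Klf2: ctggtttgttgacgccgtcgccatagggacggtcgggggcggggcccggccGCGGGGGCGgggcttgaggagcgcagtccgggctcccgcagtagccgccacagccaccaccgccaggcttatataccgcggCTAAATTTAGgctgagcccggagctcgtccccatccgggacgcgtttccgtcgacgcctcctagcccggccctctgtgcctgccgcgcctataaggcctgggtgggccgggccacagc
Klf4: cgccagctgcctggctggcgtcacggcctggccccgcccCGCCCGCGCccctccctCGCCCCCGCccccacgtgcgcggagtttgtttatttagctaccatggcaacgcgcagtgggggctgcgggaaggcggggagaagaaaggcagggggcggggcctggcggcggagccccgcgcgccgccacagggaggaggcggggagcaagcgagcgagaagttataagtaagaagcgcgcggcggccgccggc

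The IER genes held both the most abundant of the 10 genes and a gene that went the other way. Ier3 (IEX-1), a small stress-induced protein with effects on cell survival and ERK signalling, stood at 90.0 FPKM at 100 µM (95% counting interval 85.9 to 94.1) and at 272 FPKM at 300 µM (265 to 279). It was the most abundant member in both libraries, ranking 866th of all listed genes at 100 µM and 333rd at 300 µM, with a log2 ratio of 1.59. Ier2, a nuclear protein induced by serum, stood at 49.6 FPKM at 100 µM (47.0 to 52.3) and 148 FPKM at 300 µM (144 to 153), a log2 ratio of 1.56. Both were about 3-fold higher at 300 µM, by factors of 3.02 and 2.99 without the pseudocount, and their intervals at the 2 doses lay far apart. Ier5 stood at 67.7 FPKM at 100 µM (65.7 to 69.8) and 32.8 FPKM at 300 µM (31.4 to 34.2). Ier5, known in human cells to work with the phosphatase PP2A on HSF1, thus was lower at 300 µM, with a log2 ratio of -1.02, just past the 2-fold bound. The order of the 3 genes changed with it. At 100 µM Ier5 stood above Ier2, and at 300 µM Ier2 stood above Ier5 by more than the counting intervals. Their relative Ier5l stood at 35.7 and 26.6 FPKM (log2 ratio -0.41).

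Of the EGR genes, Egr2 differed more between the doses than Egr1. Egr1, the most studied factor of the family and one induced by serum, stood at 47.6 FPKM at 100 µM (46.2 to 49.1) and 65.4 FPKM at 300 µM (63.7 to 67.1). Its log2 ratio was 0.45, within 2-fold. Egr2 (Krox20), which is known for its part in myelination and hindbrain patterning, stood at 16.05 FPKM at 100 µM (15.0 to 17.1) and 38.1 FPKM at 300 µM (36.6 to 39.8), a log2 ratio of 1.20. Egr1 was above Egr2 at both doses. Egr4 was low at 100 µM, at 1.78 FPKM, and reached 11.8 FPKM at 300 µM, a log2 ratio of 2.20 that was larger than that of any member. Egr3 stood at 8.92 and 8.01 FPKM (log2 ratio -0.14, a sign that turns with centring on the median gene or a TMM factor), and Wt1 was listed at 0 in both. Summed over the 4 EGR genes, the level was 74.4 FPKM at 100 µM and 123 FPKM at 300 µM. Egr1 and Egr2 held 85.6% of that sum at 100 µM and 84.0% at 300 µM. NAB proteins bind EGR factors and restrain them, and the genes Nab1 (6.02 and 6.59 FPKM) and Nab2 (32.3 and 29.9 FPKM), itself known as an EGR target, had log2 ratios of 0.11 and -0.11. The sign of Nab1 turns with equal summed FPKM, and that of Nab2 with centring or a TMM factor. The remaining corepressor listed, Ddx20, stood at 17.3 and 3.60 FPKM (log2 ratio -1.99).

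The KLF genes split between lower and somewhat higher. Klf6, a widely expressed factor known as a tumour suppressor, stood at 46.7 FPKM at 100 µM (45.2 to 48.2) and 13.1 FPKM at 300 µM (12.3 to 13.9). With a log2 ratio of -1.76 it was the lowest of the 10, and it moved from rank 1713 to rank 4021 of all listed genes. Klf4, a factor of cell cycle arrest and of pluripotency, stood at 46.8 FPKM at 100 µM (45.1 to 48.7) and 22.1 FPKM at 300 µM (20.9 to 23.4), a log2 ratio of -1.05. At 100 µM Klf4 and Klf6 could not be told apart, their intervals covering each other, whereas at 300 µM Klf4 lay above Klf6. Klf10 (TIEG1), which was first described as a TGF-beta-inducible gene of human osteoblasts, was the least abundant member at 100 µM with 9.26 FPKM (8.47 to 10.1) and stood at 16.2 FPKM at 300 µM (15.2 to 17.3). Its log2 ratio was 0.75. Klf2, best known from flow-exposed endothelium, stood at 16.4 FPKM at 100 µM (15.0 to 17.8) and 18.7 FPKM at 300 µM (17.3 to 20.2). The Klf2 intervals at the 2 doses overlap, the counting interval of its log2 ratio without the pseudocount ran from 0.029 to 0.36, and the sign of its log2 ratio of 0.18 depends on the scaling, being negative with equal summed FPKM (-0.17) and with the trend of length and GC content removed (-0.076).

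At 100 µM the levels of the 10 genes ran, from the highest, Ier3, Ier5, Ier2, Egr1, Klf4, Klf6, Nr4a1, Klf2, Egr2 and Klf10. Within that order Ier2, Egr1, Klf4 and Klf6 differed from their neighbours by no more than the counting intervals, and so did Nr4a1, Klf2 and Egr2. At 300 µM the order was Ier3, Ier2, Egr1, Egr2, Nr4a1, Ier5, Klf4, Klf2, Klf10 and Klf6. There the intervals of Nr4a1 and Ier5 overlapped. Those of the other neighbours did not, although Klf2 (17.3 to 20.2) and Klf10 (15.2 to 17.3) nearly met. Klf10 thus left the last place, which Klf6 took.

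Among the KLF genes compared, Klf10 and Klf2 alone had log2 ratios above 0, Klf2 with the exceptions just given. Of 13 further KLF genes, 6 reached the level compared, and these had log2 ratios from -2.69 to -0.63, with 4 at least 2-fold lower (3 after centring, 5 with equal summed FPKM). The shares of all genes lower were 29.9%, 22.3% after centring and 38% with equal summed FPKM. Klf3 stood at 24.5 and 2.96 FPKM, Klf9 at 15.0 and 1.65 FPKM, Klf13 at 3.36 and 0.29 FPKM and Klf11, the closest relative of Klf10, at 2.78 and 0.81 FPKM. Klf16 (16.2 and 10.1 FPKM) and Klf7 (4.63 and 2.02 FPKM) lay within 2-fold on this scale. Klf12, Klf14, Klf15 and Klf17 were listed at 0 in both. The 17 KLF genes summed to 186 FPKM at 100 µM and 88.1 FPKM at 300 µM. Of that sum Klf10 held 4.98% and 18.4%, Klf2 8.79% and 21.2%, Klf4 25.2% and 25.1%, and Klf6 25.1% and 14.9%. The ratio of the KLF sums, 0.474, stayed below 1 with equal summed FPKM (0.365) and with a TMM factor (0.624). The related SP genes Sp1, Sp3, Sp2 and Sp8 had log2 ratios of -2.70, -2.08, -1.72 and -1.50, and Sp7 (osterix), a factor of the osteoblast lineage, had 0.35.

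**Figure D2:**
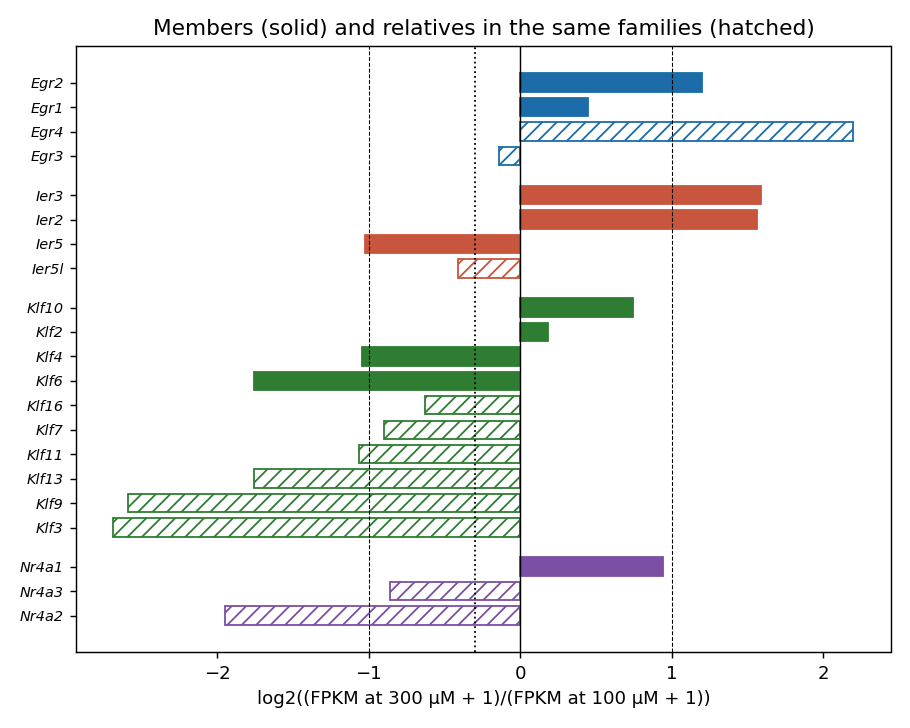
Log2 ratio of the 10 genes (solid bars) and of their relatives that reached a mean of 1 FPKM (hatched bars), grouped by family, from 1 library per dose. Dashed lines mark 2-fold and the dotted line the median of all genes compared. All 6 further KLF genes and both further NR4A genes lie to the left of 0, whereas Egr4 reaches 2.20.

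Nr4a1, an orphan receptor induced by serum, stress and parathyroid hormone in osteoblasts, stood at 17.0 FPKM at 100 µM (15.8 to 18.2) and 33.5 FPKM at 300 µM (31.9 to 35.1). Its log2 ratio of 0.94 fell short of 2-fold. Its relatives went the other way. Nr4a2 (Nurr1) stood at 11.1 and 2.13 FPKM, a log2 ratio of -1.95, and Nr4a3 at 1.61 and 0.44 FPKM (-0.86). Nr4a1 therefore held 57.2% of the summed NR4A level at 100 µM and 92.9% at 300 µM. The 3 genes summed to 29.7 and 36.0 FPKM, a ratio of 1.21 that turns to 0.936 with equal summed FPKM. Of 4 compared genes whose products are known to partner NR4A1, Rxra (10.7 and 3.19 FPKM) and Stk11 (44.2 and 15.9 FPKM) were at least 2-fold lower and 0 were higher. The shares over all genes compared were 29.9% lower and 6.09% higher.

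**Figure D3:**
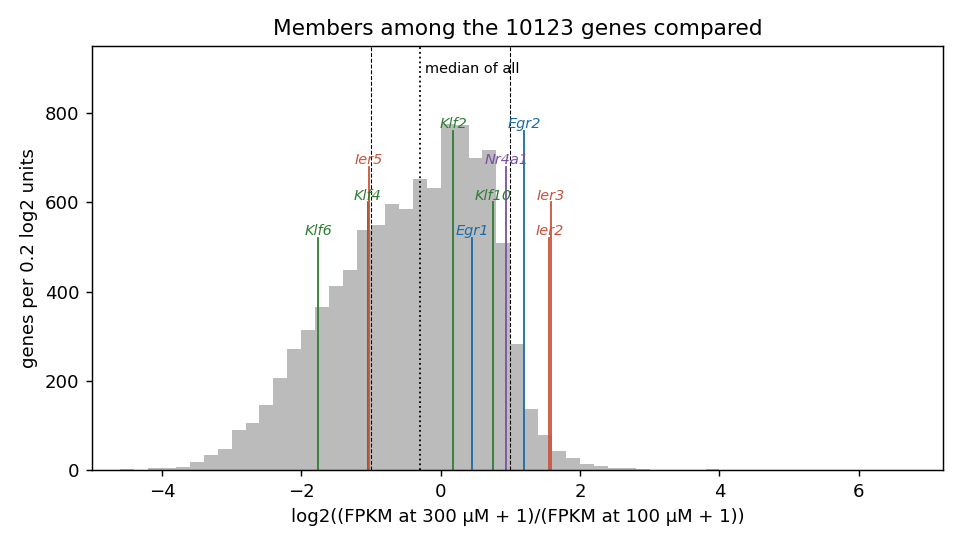
Histogram of the log2 ratio over the 10123 genes compared (grey), with each of the 10 genes as a vertical line coloured by family, labelled at staggered heights that carry no value. Dashed lines mark 2-fold and the dotted line the median of all genes, -0.30. Ier2 and Ier3 lie in the right tail and Klf4, Ier5 and Klf6 in the broad left side.

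Placed among all genes compared, Ier3 and Ier2 lay at percentiles 98.8 and 98.7 of the log2 ratio, Egr2 at 96.7 and Nr4a1 at 92.9. Klf10 lay at 87.1, Egr1 at 76.5 and Klf2 at 66.6. Ier5 and Klf4 lay at 29.1 and 28.6 and Klf6 at 13.0, positions that many other genes share. By distance in log2(FPKM + 1) over the 2 libraries, the genes most like Ier3 were Fdps (85.3 and 237 FPKM, distance 0.21), Junb (87.2 and 216 FPKM, 0.34) and Tceal9 (107 and 230 FPKM, 0.35). Those most like Klf6 were Rhog (47.1 and 13.5 FPKM, 0.043), Lzts2 (45.7 and 12.7 FPKM, 0.050) and Phf23 (47.5 and 12.5 FPKM, 0.074). Likeness over 2 libraries says only that 2 pairs of values were close.

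Because FPKM values are shares of a library, the scale was varied. The values summed to 532944 (100 µM) and 691521 (300 µM), and making the sums equal shifts the log2 ratios by -0.38 before the pseudocount. The median gene stood at -0.30 and the trimmed mean of log ratios (the TMM factor) at -0.40. Centring adds 0.30 to every log2 ratio, and the TMM factor adds up to 0.40, less at low levels because of the pseudocount. With equal sums 2 of the 10 genes were at least 2-fold higher (Ier2 and Ier3, against 2.16% of all genes) and 3 lower (Ier5, Klf4 and Klf6, against 38%). After centring 5 were higher (Klf10 and Nr4a1 joined, against 14.5%) and 1 was lower (Klf6, against 22.3%). The TMM factor gave the same 5 and 1, against 17.1% and 22.6% of all genes. With a pseudocount of 5, 3 genes were higher (background 2.55%) and 1 lower (background 16.1%). At a 1.5-fold bound 5 were higher and 3 lower, against 18.8% and 41.6%, and at 3-fold Ier3 was higher and Klf6 lower, against 1.22% and 16.3%. Relative to the median gene, the differences of Ier5 and Klf4 were -0.73 and -0.75, within 2-fold. Over the alternatives shown in the plot of settings, the log2 ratio ran from 1.15 to 1.96 for Ier2 and from -2.10 to -1.38 for Klf6.

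**Figure D4:**
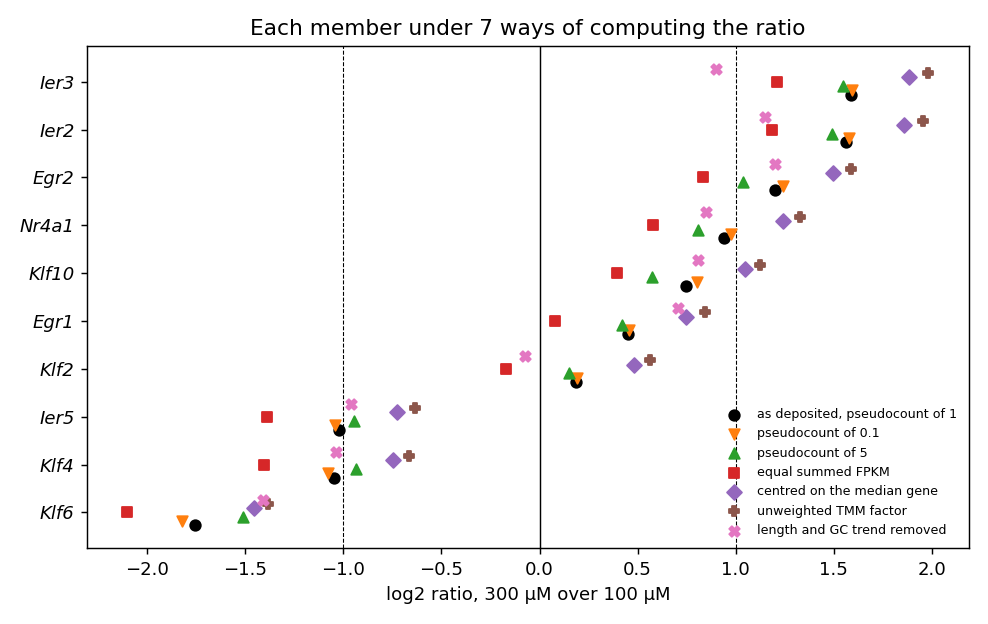
Log2 ratio of each of the 10 genes under 7 ways of computing it, each marker being one setting and dashed lines 2-fold, from 1 library per dose. Ier2 lies right of the upper line and Klf6 left of the lower line in all 7, Ier3 drops to 0.90 with the length and GC trend removed, and Klf2 lies on both sides of 0.

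The 10 genes are compact. In GENCODE release M21 (GRCm38) their median span was 5243 bases, against 23328 for all genes compared, and 9 of 10 were under 10 kb, as were 24.1% of all genes. Ier2 (chr8:84661331-84662852, minus strand) and Ier5 (chr1:155096361-155099636, minus strand) have 1 exon, and Ier3 (chr17:35821684-35822923, plus strand), Egr1 and Egr2 (chr10:67535475-67542188, plus strand) have 2. In all 5 of 10 had 1 or 2 exons, against 6.23% of all genes. No annotated gene overlapped any of the 10 on either strand. For 9 of them 0 of the 50-base words of the transcript occurred in another gene's transcripts, and for Klf4 0.268% did. At least 1 copy of ATTTA, the core of the AU-rich element that marks short-lived mRNAs, lay in the annotated 3' UTR of 9 of the 10, all but Ier2, against 69.6% of all genes. The stricter UUAUUUAUU lay in 0 of 10 and in 8.12% of all genes.

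The log2 ratio moved with transcript length over the whole table, and the 10 genes followed that order in part. Over 10093 genes Pearson's r with log2 length was -0.38 and Spearman's rho was -0.41, as a description across genes that share 2 libraries. The median log2 ratio was 0.55 for transcripts under 1.5 kb, 0.05 from 1.5 to 2.5 kb, -0.43 from 2.5 to 4 kb and -0.87 above. Over the 10 genes r was -0.63 and rho -0.70. Ier3 (1131 bases) and Ier2 (1522 bases) are the shortest and had the highest ratios, and Klf6 (4225 bases) is among the longest and had the lowest. Egr2, Klf10 and Nr4a1 on the higher side and Klf4 and Ier5 on the lower side, however, have similar lengths, from 2553 to 3276 bases. Egr1, at 4484 bases, stood at 0.45 while the median of transcripts above 4 kb was -0.87. With the trend of length and GC content removed, Ier3 had 0.90, Ier2 1.15 and Klf6 -1.41. Egr2 stayed at 1.20, Klf4 at -1.04 and Ier5 at -0.96. In that setting 2 of 10 were at least 2-fold higher and 2 lower, against 5.57% and 25.9% of all genes.

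**Figure D5:**
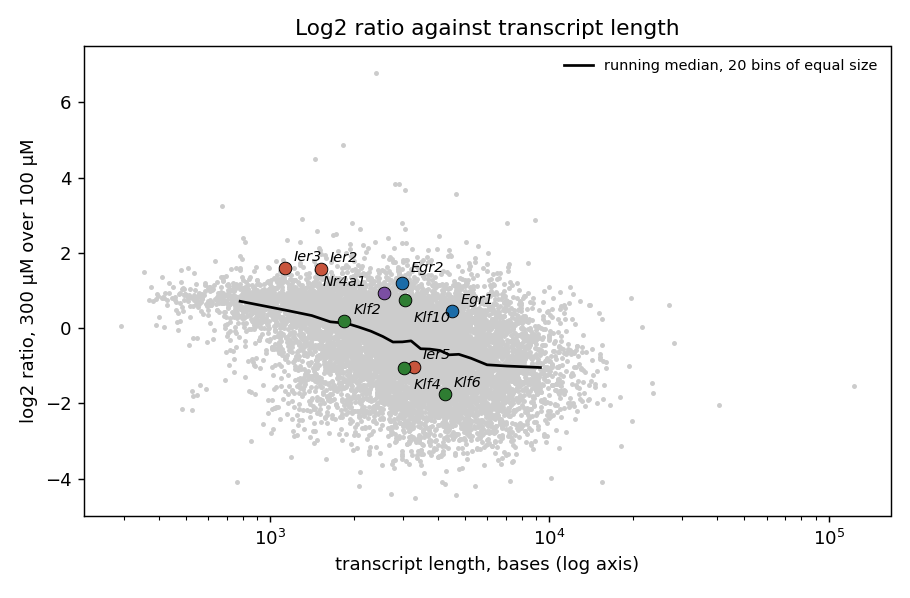
Log2 ratio against transcript length in bases (log axis) for the genes compared that have an annotated transcript (grey points), with the running median over 20 bins of equal size (line) and the 10 genes coloured by family. The running median declines with length, and Egr2, Klf10 and Nr4a1 lie above it while Klf4, Ier5 and Klf6 lie below it.

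The upstream factors that read the kinase signal were mostly lower or within 2-fold at 300 µM. Srf, which encodes the serum response factor, stood at 34.3 and 37.7 FPKM (log2 ratio 0.13, a sign that changes with equal summed FPKM). Of its ternary complex partners, Elk1 (5.06 and 4.35 FPKM) and Elk3 (17.9 and 12.0 FPKM) had log2 ratios of -0.18, a sign that turns with centring or a TMM factor, and -0.53, and Elk4 (6.79 and 1.18 FPKM) had -1.84. The actin-regulated coactivators Mrtfa (14.1 and 4.34 FPKM) and Mrtfb (2.43 and 0.66 FPKM) were at least 2-fold lower. After centring Mrtfb fell within 2-fold (-0.75). In the ERK1/2 module, Mapk3 (ERK1) was higher, at 55.4 and 118 FPKM, and fell within 2-fold with equal summed FPKM. Of 6 genes of the ERK5 and MEF2 module, which is known to act on Klf2 and Klf4 in endothelium and on Nr4a1 in T cells, 3 were lower and 1 higher (4 and 0 with equal summed FPKM). Mapk7 (ERK5) stood at 17.7 and 5.35 FPKM, Mef2d at 16.1 and 4.29 FPKM, Map3k2 at 5.05 and 0.47 FPKM, Map2k5 (MEK5) at 1.49 and 4.51 FPKM, and Mef2a (8.36 and 3.97 FPKM) lay within 2-fold on this scale. Of 10 genes of the p38, JNK and MSK kinases 4 were lower and 0 higher, led by Map2k4 (16.9 and 3.78 FPKM), Map2k3 (132 and 42.6 FPKM) and Mapk14 (p38 alpha, 20.4 and 6.18 FPKM). Of 8 genes of CREB and its coactivators 4 were lower and 0 higher, among them Ep300 (11.6 and 0.72 FPKM), Creb1 (7.39 and 0.68 FPKM) and Crebbp (3.87 and 0.44 FPKM). These shares stand beside 29.9% lower and 6.09% higher among all genes. The number lower in CREB and its coactivators was 3 after centring and 7 with equal summed FPKM. Over all genes compared 22.3% were lower after centring, and with equal summed FPKM 38% were lower and 2.16% higher. The values are mRNA levels, not kinase activity.

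Genes known as targets of the EGR and KLF factors had medians below that of all genes. Of 14 compared EGR targets, 1 was higher, Insig1 (12.8 and 49.9 FPKM), and 7 were lower, among them the growth factor genes Vegfa (91.8 and 7.08 FPKM), Fgf2 (6.13 and 0.08 FPKM) and Pdgfa (82.0 and 13.3 FPKM). Their median log2 ratio was -1.02. Of 12 compared KLF targets, 0 were higher and 8 lower, with a median of -1.43. Thbd (thrombomodulin) stood at 141 and 13.6 FPKM, Tgfbr1, a TGF-beta receptor gene, at 11.9 and 1.11 FPKM, and S1pr1, a sphingosine phosphate receptor gene, at 36.9 and 5.90 FPKM. These lists come from other cell types in large part. Among all genes compared 6.09% were higher and 29.9% lower. After centring 2 EGR targets were higher and 6 lower, and 0 KLF targets higher and 7 lower, against 14.5% and 22.3%. With equal summed FPKM the EGR targets gave 1 and 8 and the KLF targets 0 and 10, against 2.16% and 38%. Of 12 genes for HSF1 and the PP2A subunits that partner IER5 and IER3, 3 were lower and 0 higher. These counts stand beside 29.9% and 6.09% of all genes. The lower ones were Ppp2r2a (27.6 and 4.55 FPKM), Ppp2r1b (23.8 and 5.90 FPKM) and Ppp2r2d (22.2 and 9.69 FPKM). After centring 1 was higher and 2 lower, and with equal summed FPKM 0 were higher and 7 lower.

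Genes for factors that act on the stability of such transcripts and proteins went in both directions. Among all genes compared 6.09% were higher and 29.9% lower, with 22.3% lower after centring and 38% with equal summed FPKM. Of 9 AU-rich element binders 1 was higher, Zfp36 (tristetraprolin, itself an immediate early gene, 16.0 and 73.7 FPKM), and 5 were lower, or 2 after centring and 6 with equal summed FPKM, led by Khsrp (49.3 and 9.13 FPKM), Zfp36l2 (253 and 61.3 FPKM) and Elavl1 (HuR, which stabilises its targets, 17.1 and 6.42 FPKM). Of 8 genes for ubiquitin ligases and their substrate receptors, Btrc was higher (1.85 and 5.96 FPKM) and 3 were lower, beside 29.9% of all genes lower, Vhl (17.99 and 4.31 FPKM), Itch (13.96 and 4.04 FPKM) and Smurf2 (27.5 and 10.9 FPKM). Centring left 2 lower, and with equal summed FPKM 4 were lower and 0 higher, Btrc standing at 0.97.

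Other immediate early genes also lay on both sides. Over all genes compared, 6.09% were higher and 29.9% lower. These shares were 14.5% and 22.3% after centring, and 2.16% and 38% with equal summed FPKM. Of the 7 AP-1 genes 3 were higher, Fos, Fosb and Junb (log2 ratios 2.62, 1.80 and 1.30), and 2 were lower, Fosl2 and Fosl1 (-3.50 and -1.42). With equal summed FPKM 2 were higher, Junb falling within 2-fold. Of 35 further immediate early genes compared, 7 were higher and 17 lower, and the median log2 ratio was -0.93. Centring left 7 higher and 10 lower, and with equal summed FPKM 7 were higher and 19 lower. The highest were Arc (4.76 and 34.5 FPKM), Plk3 (11.3 and 58.8 FPKM) and Zfp36, and the lowest were the ERK phosphatase genes Dusp4 (19.8 and 0.69 FPKM) and Dusp6 (163 and 19.2 FPKM) and the kinase gene Sgk1 (524 and 61.2 FPKM).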

How the data were processed

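RNA of MC3T3-E1 cells at each dose was sequenced as 1 library. The authors deposited 1 table per library in FPKM, given to 2 decimals, per the file headers. The submitters' processing notes list Bowtie2 and RSEM with no version, and the genome build is not given in the sources used here. Symbols came from NCBI gene numbers (17179 in RefSeq, GRCm38.p6, 7 in GENCODE M21, 29 unnamed). Depth came from FPKM times length of low genes with 1 transcript: steps of 54 and 51.5 bases placed 70.0% of 90 and 65.1% of 63 values within 0.12 reads of a whole number. Reads per gene follow from that, with exact 95% Poisson intervals. The step was scanned for the best share, so depth is a rough estimate, and because no molecular identifiers are stated the intervals cover counting error only.

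Log2 ratios used a pseudocount of 1, which understates changes of low genes, and a mean of at least 1 FPKM. No test was possible. Alternatives were pseudocounts of 0.1 and 5, equal summed FPKM, centring, an unweighted TMM factor (30% of ratios and 5% of levels trimmed at each end), removal of a quadratic trend with length and GC content, bounds of 1.5-fold and 3-fold, no filter and a mean of at least 10 FPKM. The members and 19 lists (188 entries, of which Sp5 was not found) were chosen with earlier results of these data known. Every member is named, relatives, corepressors, SRF and MEF2 factors are named at 1 FPKM, and up to 3 genes per direction past 2-fold in other lists. Counts for the ERK1/2 module are not reported here. Promoter windows were those nearest the annotated gene start. The ratio and call steps were tested on simulated data. Software was Python 3.11.15 with matplotlib 3.10.9, scipy 1.17.1, pandas 2.3.3 and numpy 2.4.6.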

Additional observations from a re-analysis of the deposited data

How the results depend on the processing

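The main setting gave 3 genes higher, 3 lower and a median of 0.60. Lifting the filter, or raising the mean it requires to 10 FPKM, could not change these values. All 10 genes pass either way, and the filter does not enter their ratios. With a pseudocount of 0.1 the counts were the same (median 0.63). The number higher became 5 after centring, with the TMM factor and at 1.5-fold, 1 at 3-fold, and 2 with equal summed FPKM (Egr2 at 0.83) and with the length and GC trend removed (Ier3 at 0.90). The number lower became 1 after centring, with the TMM factor, with a pseudocount of 5 and at 3-fold, and 2 with the trend removed (Ier5 at -0.96). The median was 0.50 with a pseudocount of 5, 0.24 with equal summed FPKM, 0.90 after centring, 0.98 with the TMM factor and 0.76 with the length and GC trend removed. Klf2 changed sign with equal summed FPKM (-0.17) and with the trend removed (-0.076). The other 9 genes kept their sign in the 6 alternatives run on single genes. Shifts of scale move all genes by construction. The cause of the changes with length was not tested. With 1 library per dose no replicate could be left out. Depth limits Klf2 most, whose levels have overlapping counting intervals although that of its ratio (0.029 to 0.36) lies above 0.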
